A study of Mus musculus with 321 samples.

Results

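NIH3T3 is an established line of mouse embryonic fibroblasts. Its open chromatin was compared between day 4 and day 2 in cells with an empty retrovirus (RV), the vector without Tcf-1. The libraries, 4 of 321 samples in all, were chosen because the names of their peak files hold Empty together with a day tag. Empty RV replicates 1 and 2 carry the tag Day2 and replicates 3 and 4 the tag Day4. The sample labels themselves give no day, so the days, and the reading of them as culture time, rest on the file names alone. All 4 libraries share the strain background NIH/Swiss, passages 8 to 12 and a tag of 75 minutes in the file names. The study as a whole asks how Tcf-1, the T cell transcription factor that Tcf7 encodes, shapes chromatin. Its 4 libraries of NIH3T3 cells with a Tcf-1 retrovirus (Tcf-1 RV), at the same day tags, took no part in the choice of regions below and serve as separate libraries. They share the passages and the tag of 75 minutes. A batch common to both arms on a day therefore cannot be told apart from culture time. The line is 1 established line, and the labels do not tie replicates to separate cultures, so the p-values measure only the spread between these libraries.

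ATAC-seq maps open chromatin by letting a transposase insert adapters where DNA is not covered by nucleosomes. Stretches with many insertions, called peaks, mark promoters, where transcription starts, and distal elements such as enhancers. In fibroblasts many enhancers are bound by AP-1 (dimers of Fos and Jun proteins) and by TEAD factors with their cofactor Yap1, and the accessible set is known to respond to serum, cell density and time in culture.

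The 4 peak lists were merged into 61231 regions wherever peaks shared at least 1 bp. Both day 4 libraries and no day 2 library held 12580 regions (day-4-only), which is 20.5% of all regions. Both day 2 libraries and no day 4 library held 0.266% of regions (day-2-only), or 1 for every 77.2 day-4-only regions. All 4 libraries held 20682 regions, and 1745 regions were held by 1 library of each day. With 2 libraries against 2, an exact permutation test cannot give a p below 0.333, so no single region can pass a test. The region classes are therefore counts of full separation between the days, and their features are described without tests. The day 4 lists are also longer, so the counts are given beside list length and beside the same regions in the Tcf-1 RV libraries.

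Promoters in day-4-only and day-2-only regions show what kinds of sequence are in these classes. The bases are RefSeq's for GRCm38.p6, given 5′ to 3′ on the strand of the gene and ending at the base before the transcript start. In the first 4 sequences, those of Col4a1, Cebpb, Actg1 and Fgf7, capitals mark CpG dinucleotides, since day-4-only promoters include both very CpG-rich and CpG-poor ones. In the last 2, those of Ajuba and Msh4, capitals mark matches to the AP-1 motif TGANTCA and the TEAD motif GGAATG on either strand. These 6 were chosen after their values were seen, from the genes of the lists used below and the 5 day-2-only promoters.
Col4a1, a basement membrane collagen gene, chr8:11312827-11313076, minus strand: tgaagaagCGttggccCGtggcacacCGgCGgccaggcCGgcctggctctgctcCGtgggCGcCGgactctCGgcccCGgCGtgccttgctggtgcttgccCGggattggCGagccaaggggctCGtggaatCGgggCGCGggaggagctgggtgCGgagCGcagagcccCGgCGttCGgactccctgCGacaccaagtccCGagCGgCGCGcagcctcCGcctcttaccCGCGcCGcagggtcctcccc
Cebpb, a transcription factor of adipocyte differentiation, chr2:167688665-167688914, plus strand: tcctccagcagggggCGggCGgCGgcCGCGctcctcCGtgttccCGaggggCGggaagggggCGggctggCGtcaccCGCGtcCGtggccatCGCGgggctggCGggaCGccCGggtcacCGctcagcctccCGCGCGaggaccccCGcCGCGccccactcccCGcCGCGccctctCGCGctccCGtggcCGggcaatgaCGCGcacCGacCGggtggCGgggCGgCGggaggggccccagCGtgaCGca
Actg1, cytoplasmic gamma actin, chr11:120348496-120348745, minus strand: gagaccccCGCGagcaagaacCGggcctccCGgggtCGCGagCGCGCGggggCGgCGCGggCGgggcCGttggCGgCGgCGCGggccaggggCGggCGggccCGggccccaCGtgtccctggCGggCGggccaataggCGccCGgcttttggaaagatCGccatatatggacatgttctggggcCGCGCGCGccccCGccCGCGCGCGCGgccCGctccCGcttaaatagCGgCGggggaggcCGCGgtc
Fgf7, a growth factor that fibroblasts secrete, chr2:126034408-126034657, plus strand: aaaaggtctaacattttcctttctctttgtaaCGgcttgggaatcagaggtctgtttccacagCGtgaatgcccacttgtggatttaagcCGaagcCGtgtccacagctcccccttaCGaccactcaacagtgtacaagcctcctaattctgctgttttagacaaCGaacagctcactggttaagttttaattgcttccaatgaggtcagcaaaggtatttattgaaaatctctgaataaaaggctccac
Ajuba, a LIM protein of the Hippo pathway, chr14:54577662-54577911, minus strand: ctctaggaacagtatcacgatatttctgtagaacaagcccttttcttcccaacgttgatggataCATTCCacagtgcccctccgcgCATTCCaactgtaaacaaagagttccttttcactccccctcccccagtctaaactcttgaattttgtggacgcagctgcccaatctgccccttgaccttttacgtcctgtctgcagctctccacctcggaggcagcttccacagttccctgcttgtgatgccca
Msh4, a meiotic recombination gene, chr3:153904892-153905141, minus strand: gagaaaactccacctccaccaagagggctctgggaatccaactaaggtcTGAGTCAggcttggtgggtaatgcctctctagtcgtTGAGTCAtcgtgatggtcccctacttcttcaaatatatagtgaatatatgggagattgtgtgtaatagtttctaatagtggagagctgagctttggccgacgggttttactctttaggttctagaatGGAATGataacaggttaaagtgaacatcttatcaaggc
The 250 bases of Actg1 hold 43 CpG dinucleotides and those of Cebpb 41, against 31 in Col4a1 and 6 in Fgf7. The bases of Ajuba hold 2 TEAD matches, both outside its day-4-only region. Those of Msh4, the day-2-only promoter, hold 2 AP-1 matches inside its region and 1 TEAD match outside it. A day 4 Empty RV peak lay 44 bp from the Msh4 region, and no Tcf-1 RV library held that region. A match is a description of the letters and not evidence that a factor was bound.

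The number of peaks was 22778 in replicate 1 and 34601 in replicate 2 on day 2, and 46819 in replicate 3 and 58026 in replicate 4 on day 4. Both day 4 lists were longer than both day 2 lists (52423 ± 7925 against 28690 ± 8360 peaks, mean ± SD, n = 2 each), and the two-sided exact permutation test gave p = 0.333, the smallest it allows. The order held within each letter tag of the file names (a 2-letter code that replicates 1 and 3 share, and that replicates 2 and 4 share), with differences of 24041 and 23425 peaks. The files give no read depth, no peak height and no score. List length is thus the one measure of how much was called, and depth, signal quality and openness cannot be told apart in it. In the Tcf-1 RV arm the day tags did not order the lists, which held 47623 and 43527 peaks on day 2 and 36583 and 62639 on day 4.

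The longer lists had a smaller share of promoter-like peaks. Gene-end peaks, those no more than 1 kb from the start or end of a protein-coding gene, made up 31.7% and 28.1% of the day 2 lists and 23.3% and 20.0% of the day 4 lists. The share of peaks inside islands of H3K27me3, the repressive mark of Polycomb, was 0.487% and 1.07% on day 2 and 2.01% and 2.77% on day 4. Both days were fully separated in both measures (exact permutation p = 0.333 for each, n = 2 per day). The share in islands of H3K9me3, the mark of constitutive heterochromatin, was 5.50% and 5.42% on day 2 and 5.40% and 5.83% on day 4, and the days overlapped (exact permutation p = 1).

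These shares followed list length in both arms. When the 8 NIH3T3 lists were ordered by length, the gene-end share fell at each of 7 steps and the H3K27me3 share rose at each of 7 steps, whatever the day or virus. Tcf-1 RV replicate 3, a day 4 library with 36583 peaks, had 27.5% gene-end peaks, close to the 28.1% of Empty RV replicate 2, a day 2 library with 34601. When each Empty RV library was cut to its 22778 widest peaks, the gene-end share was 3.49 percentage points higher on day 4, the opposite direction. The H3K27me3 share was still higher, by 0.248 points. The cut left replicate 1, a day 2 library, whole and took the narrowest peaks from the others. Regions of all 4 libraries were wide (median 0.519 kb) and lay at gene ends in 33.03% of cases, against 0.293 kb and 10.2% for day-4-only regions. A cut to the widest peaks is therefore not neutral for the gene-end share.

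**Figure D1:**
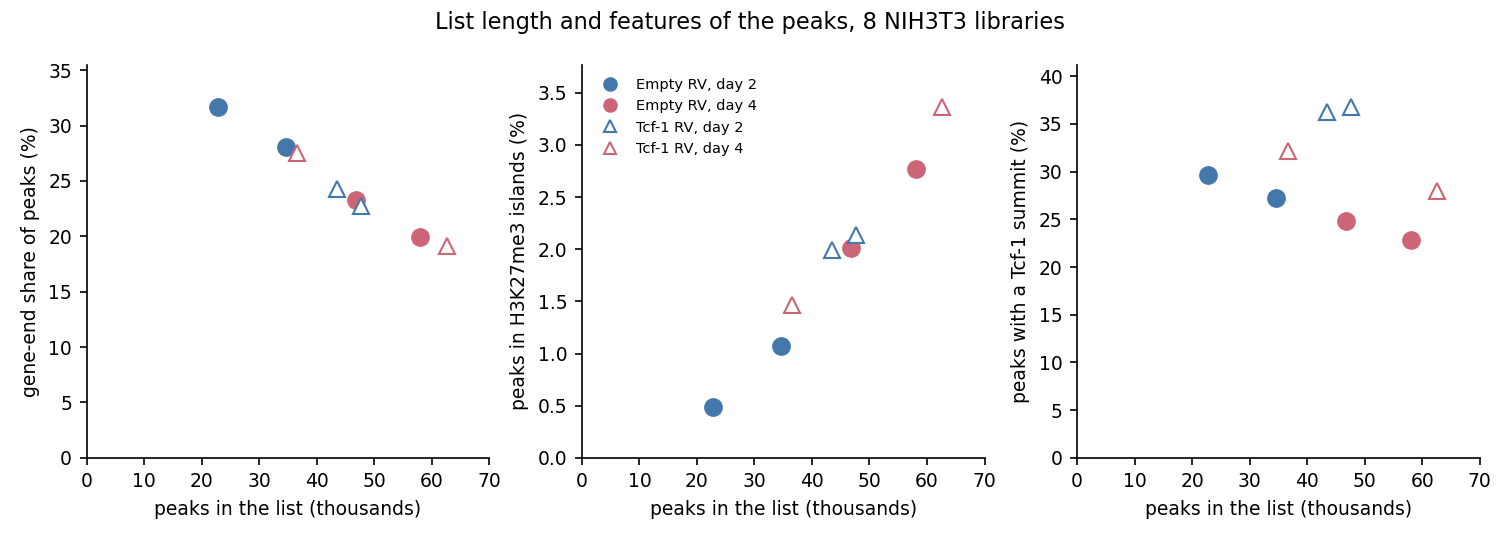
Share of peaks near gene ends, in H3K27me3 islands and with a Tcf-1 summit (%) against the number of peaks in the list, 1 point per library (circles Empty RV, triangles Tcf-1 RV, blue day 2, red day 4). The 8 libraries fall along 1 line of list length in the first 2 panels, from 31.7% gene-end peaks at 22778 peaks to 19.1% at 62639, while in the third the Tcf-1 RV lists lie above the Empty RV lists of like length.

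The labelled cell type was checked against its markers. Of 13 fibroblast markers, 5 had a gene-end peak in replicate 1, 9 in replicate 2, 11 in replicate 3 and 12 in replicate 4. Prrx1, a mesenchymal homeobox gene, had none in any library. The T cell markers Cd3e, Cd3d, Cd4, Cd8a, Lck, Rag1 and Ptprc had no gene-end peak in any of the 4 libraries, and the eighth, Cd247, had one in replicate 4. Of the 41 markers of T, B and myeloid, epithelial, endothelial, neural and muscle cells, 0, 2, 7 and 8 were open in replicates 1 to 4. The counts for fibroblasts and for the other cell types moved together with list length, and their part in the comparison was not tested.

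Most regions were held in nested patterns. Replicate 4 alone held 12437 regions, and replicates 2, 3 and 4 without replicate 1 held 9733. Replicate 3 alone held 1856, replicate 2 alone 916 and replicate 1 alone 0.301% of all regions. A further 1368 of the 1745 regions of 1 library per day were those of replicates 2 and 4, the longer list of each day.

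**Figure D2:**
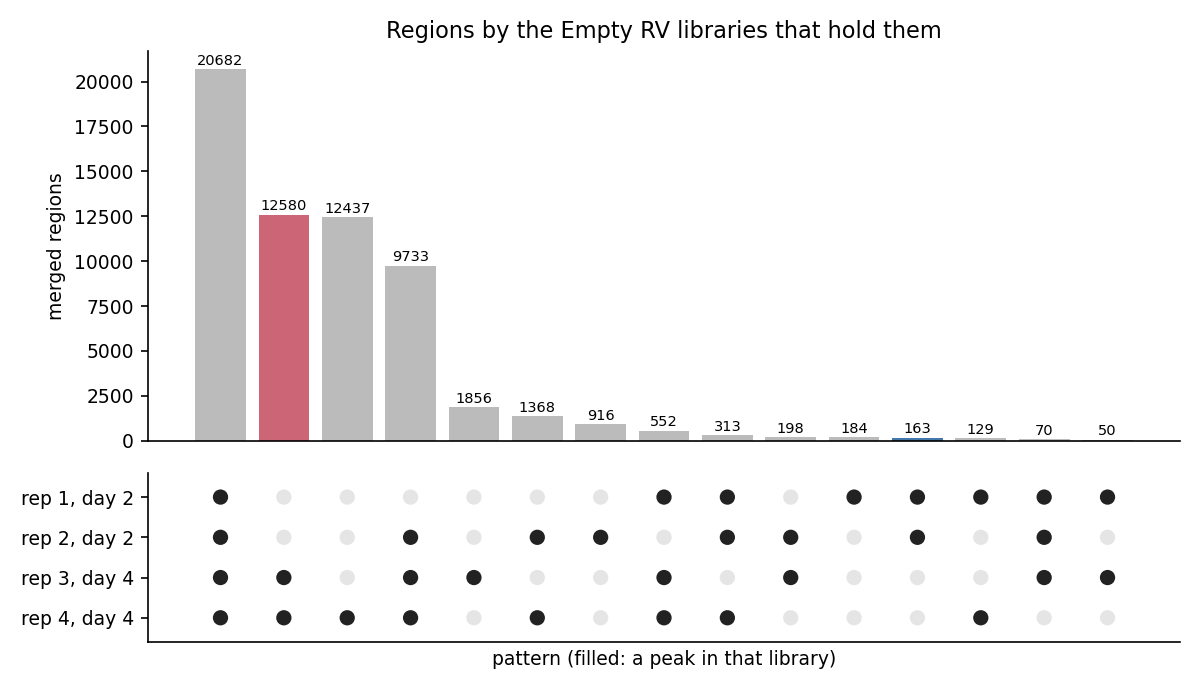
Number of merged regions (bars) for each pattern of Empty RV libraries, with the pattern shown as filled dots below. The day-4-only bar (red) stands at 12580 and the day-2-only bar (blue) at 0.266% of the 61231 regions.

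The Tcf-1 RV libraries, which the classes did not use, separated by day at the same regions. They held 36.5% and 35.6% of the day-4-only regions on day 2 (replicates 1 and 2) and 43.3% and 86.9% on day 4 (replicates 3 and 4). Replicate 3 held more of them than both day 2 libraries although its list was the shortest of the 4. It shares the day tag and letter tag of Empty RV replicate 3, which holds every day-4-only region by definition. The day-2-only regions went the other way, with 78.5% and 65.03% held on day 2 and 10.4% and 33.7% on day 4. Day 4 minus day 2 was 29.1 percentage points for day-4-only and -49.7 for day-2-only regions (exact permutation p = 0.333 each, n = 2 per day). Without replicate 4, the longest Tcf-1 RV list, the first difference was 7.27 points.

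The other classes give the level where the choice used no day difference. Of the regions of all 4 Empty RV libraries, the Tcf-1 RV lists held 97.24%, 97.03%, 92.5% and 98.5% (replicates 1 to 4). Of the regions of 1 library of each day, they held 56.4%, 50.5%, 18.6% and 65.8%. In that class Tcf-1 RV replicate 3 was far below the day 2 libraries, whereas at day-4-only regions it was above them. Of the 1745 regions of that class, 1368 were those of Empty RV replicates 2 and 4, so absent from Empty RV replicate 3. Tcf-1 RV replicate 3 shares the day tag and letter tag of that library, so the class is not a neutral level for it.

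The Tcf-1 RV libraries were also compared at equal list length. When each Tcf-1 RV list was cut to its 36583 widest peaks, the libraries held 20.2% and 22.9% of the day-4-only regions on day 2 and 43.29% and 43.04% on day 4. At day-2-only regions the values were 65.03% and 56.4% on day 2 and 10.4% and 9.82% on day 4. The days did not overlap in either class. The exact permutation p was again 0.333, the limit of the design. Replicate 3 has 36583 peaks in all and lost none, whereas the other lists lost their narrowest peaks. Day-4-only regions are narrow (median 0.293 kb), so the cut could take them from the day 2 lists but not from replicate 3. Equal number is thus not an equal limit on width.

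**Figure D3:**
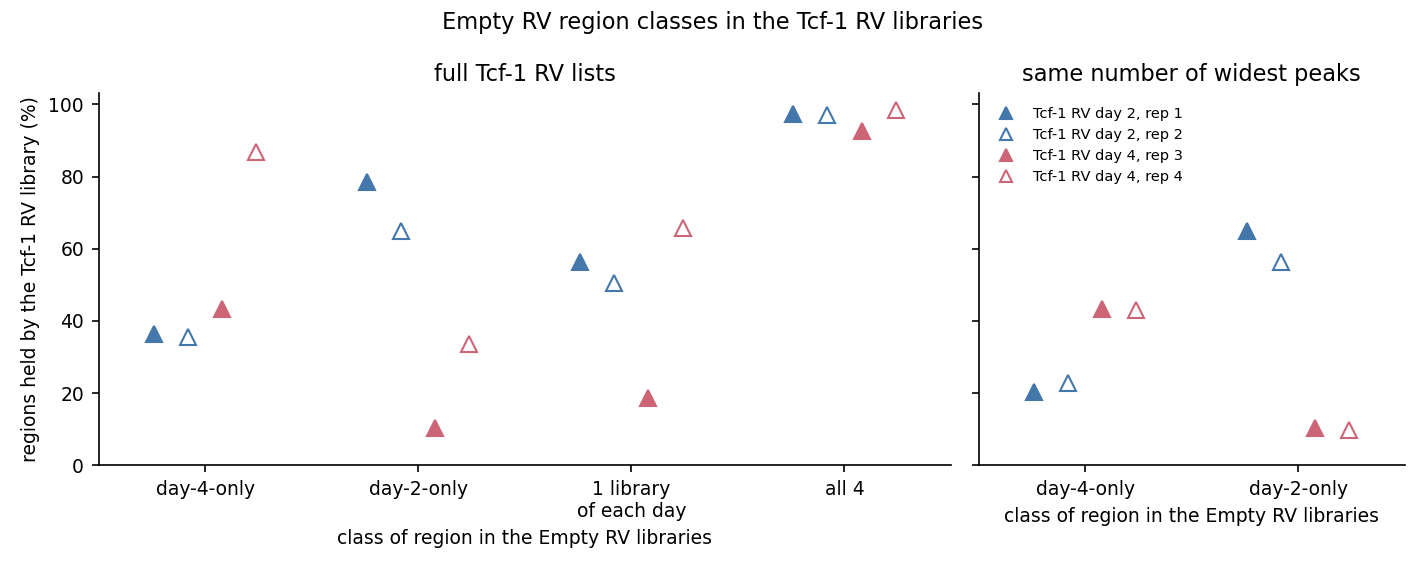
Share (%) of each class of Empty RV region that the 4 Tcf-1 RV libraries hold, with the full lists on the left and with 36583 peaks per library on the right (blue day 2, red day 4). At equal length the day 4 libraries hold 43.29% and 43.04% of day-4-only regions against 20.2% and 22.9% on day 2. The cut keeps the widest peaks and leaves day 4 replicate 3 whole.

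A stricter pattern asks for both day 4 and no day 2 library in both arms. It was shown by 1954 of the 12580 day-4-only regions (15.5%), against 5.24% of all 61231 regions with that pattern in the Tcf-1 RV arm. The opposite pattern in the Tcf-1 RV arm was shown by 64 day-4-only regions (0.509%), against 1.56% of all regions. Of the day-2-only regions, 53 (32.5%) were held by both day 2 and no day 4 Tcf-1 RV library. None (0) had the day-4-only pattern there, a count that allows a share of up to 1.84%. Among regions of 1 library per day the 2 patterns had shares of 2.06% and 6.93%. Without replicate 1, the shortest Empty RV list, 1083 regions were day-2-only. On the merged regions of all 4 lists these were 1079, and the Tcf-1 RV libraries held 55.98%, 47.5%, 6.58% and 31.05% of them (replicates 1 to 4).

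Cutting the Empty RV lists to equal length removed most of the asymmetry in the counts. With the 22778 widest peaks of each library, 2254 regions were day-4-only and 2026 day-2-only. The 2 sets differed in what the full lists held. Of the former 2254, 1323 (58.7%) had no peak in the full day 2 lists, whereas of the latter 2026, 41 (2.02%) had no peak in the full day 4 lists. The cut left replicate 1, a day 2 library, whole, and the full day 4 lists are longer. More regions could therefore regain a peak on day 4, so this contrast is not free of list length. The narrowest peak kept differed between libraries, from 200 bp in the shortest list to 369 bp in the library with the highest limit, so equal number does not mean equal width.

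Day-4-only regions were small and mostly away from gene ends. Their median width was 0.293 kb, against 0.266 kb for day-2-only regions, 0.265 kb for regions of 1 library per day and 0.519 kb for regions of all 4 libraries. Gene ends took in 10.2% of them (95% Wilson interval 9.68 to 10.7), 4.29% of day-2-only regions (2.10 to 8.60), 9.34% of regions of 1 library per day (8.06 to 10.8) and 33.03% of regions of all 4. Here and below, intervals reflect counting error alone, and regions close to each other may open together.

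H3K27me3 islands called in both replicates of that mark held 4.21% of day-4-only regions (3.87 to 4.57), 2.35% of regions of 1 library per day (1.74 to 3.17) and 0.459% of regions of all 4 libraries. Among day-2-only regions the count was 1 (0.613%, 0.108 to 3.39). H3K9me3 islands held 13.5% of day-2-only regions (9.08 to 19.6), 5.91% of day-4-only regions (5.51 to 6.33) and 8.71% of regions of 1 library per day (7.48 to 10.1). H3K9me3 was thus about as frequent in day-4-only regions as in all regions, at 5.95%.

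Distal day-4-only regions held a Tcf-1 summit from ChIP-seq of Tcf-1 RV cells in 16.9% of cases, distal regions of 1 library per day in 16.7% and distal day-2-only regions in 17.9%. Distal regions of all 4 libraries held one in 41.9%. Empty RV cells carry no Tcf-1 virus, so these summits mark places that the factor occupied in other cells. The name of the summit list holds the tag Day2, so no summits of day 4 were compared. With gene ends included, overlap with peaks of both wild-type CD4 CD8 double-positive thymocyte libraries was 9.11% for day-4-only and 7.05% for regions of 1 library per day. It was 1.23% (2 regions) for day-2-only and 37.0% for regions of all 4. Among distal regions the shares were 7.07% for day-4-only, 5.06% for 1 library per day, 1.28% for day-2-only and 13.3% for all 4. Day-4-only regions lay within 10 kb of another one in 17.01% of cases, and regions of all 4 libraries lay that close to a day-4-only region in 16.8%. On the autosomes and X they made up between 18.5% (chromosome 13) and 22.4% (chromosome 19) of a chromosome's regions.

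At regions that all 4 libraries held, peaks were wider on day 4. The median width there was 300 bp in replicate 1, 393 in replicate 2, 436 in replicate 3 and 497 in replicate 4, an order that equals that of list length. Both day 4 peaks were wider than both day 2 peaks at 13389 regions (64.7%), and both were narrower at 285 (1.38%). In the Tcf-1 RV arm the median log2 difference in width of day 4 over day 2 was 0.05 over all such regions that its 4 libraries held. It was -0.35 at those of the 285 regions that all Tcf-1 RV libraries held (58.6%), and 66.5% of these were narrower in both day 4 Tcf-1 RV libraries. Of all the regions compared, 12.7% were. At the regions wider on day 4 in Empty RV, 24.9% were wider in both day 4 Tcf-1 RV libraries, against 20.4% of all compared.

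Promoters were described with RefSeq windows of 250 bases before to 50 after each transcript start. Of 32817 distinct windows, 756 windows of 685 genes overlapped a day-4-only region and 5 overlapped a day-2-only region (Msh4, Krtap1-5, Gm4610, Gm33323 and Gm33398, the last 2 sharing 1 region). Windows that also overlapped a region of another class named above were left out of both counts. Overlap with regions of the remaining patterns was allowed. The median G + C of the 756 windows was 61% with 20 CpG dinucleotides, close to the 62.3% and 23 of windows in regions of all 4 libraries. Windows in no region had 49% and 4. The AP-1 motif TGANTCA was in 6.75% of the day-4-only windows, 5.26% of windows of all 4 libraries and 7.81% of all windows. The TEAD motif GGAATG was in 11.8%, 11.1% and 14.7%.

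Day-4-only windows were more frequent at both ends of base composition, with Cebpb and Actg1 at the CpG-rich end and Fgf7 at the CpG-poor end. The rule here is stricter than that for the 756 windows, since any region with a day 2 peak removes a window. Of the 10527 windows in a region of both day 4 libraries, 751 (7.13%) touched no region with a day 2 peak. That share was 16.2% for windows under 45% G + C (12.5 to 20.7), fell to 4.42% at 60 to 65% (3.63 to 5.37) and was 19.4% at 80% and over (14.7 to 25.1). Of the windows at 80% and over with no day 2 Empty RV peak, the Tcf-1 RV libraries held 21.4% and 47.6% on day 2 and 45.2% and 97.6% on day 4. At under 45% they held 43.1% and 47.1% on day 2 and 37.3% and 76.5% on day 4. The days overlapped at both ends of G + C. The ladder of G + C steps was chosen after the data were seen, and the part of base composition in the day difference was not tested.

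**Figure D4:**
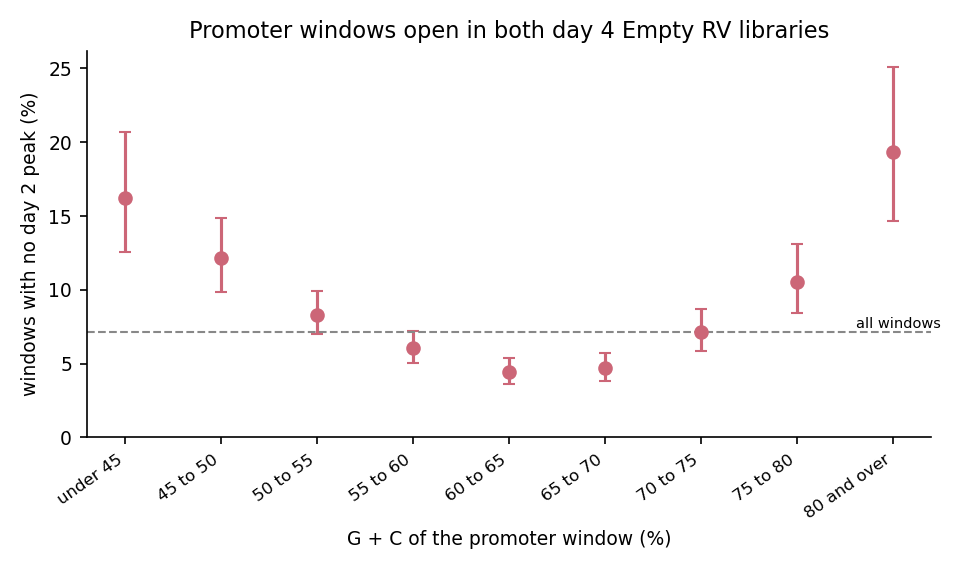
Share (%) of promoter windows open in both day 4 Empty RV libraries that have no day 2 peak, by G + C of the window, with 95% Wilson intervals. The share is lowest, 4.42%, at 60 to 65% G + C and highest, 19.4%, at 80% and over, around 7.13% for all windows (dashed).

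Among the genes of the lists used here, 13 had a promoter window among the 756 day-4-only windows. Col4a1 and Col4a2, neighbouring collagen IV genes transcribed away from each other, shared 1 region at chr8:11312400-11313049, with peaks of 0.548 kb in replicate 3 and 0.650 kb in replicate 4. Tcf-1 RV replicates 2, 3 and 4 held it and replicate 1 did not. At Cebpb the day 4 peaks were 0.431 and 0.547 kb wide, at Actg1 0.284 and 0.439 kb, and at Fgf7 0.380 and 0.428 kb. The Cebpb region was held by all 4 Tcf-1 RV libraries, and the Fgf7 region by both of day 4 and neither of day 2. Ajuba, with peaks of 0.202 and 0.328 kb, had the same Tcf-1 RV pattern as Fgf7. The others were Amotl1, Clock, Areg, Bbc3, Abca1, Tpm2 and Vegfa, of which Clock and Tpm2 had a day 2 peak within 1 kb of the region.

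The widest day-4-only region, by the smaller of its 2 peaks, lay in Sptbn1, which encodes beta spectrin of the membrane skeleton (chr11:30267647-30268603, 0.915 and 0.908 kb). Tcf-1 RV replicates 2, 3 and 4 held it. This region and the one in Tle4 had a day 2 peak within 1 kb, outside the region, and so would not count as day-4-only where absence must reach 1 kb. Of the 12 widest, 6 were held by all 4 Tcf-1 RV libraries, among them regions in Tm9sf1, Rcbtb2, Tle4 and Plcb1. The region in Ssh2, a cofilin phosphatase of the actin skeleton, had peaks of 0.764 and 0.756 kb and was held by both day 4 and neither day 2 Tcf-1 RV library. The same held for a region far from genes on chromosome 2, at chr2:134214340-134215325 (0.807 and 0.986 kb).

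The widest day-2-only regions were narrower. The first was in Cpne8, a copine of calcium-dependent membrane binding (chr15:90567973-90568406, 0.404 and 0.434 kb). One in Ebf1, a transcription factor of adipocyte and B cell precursors, had peaks of 0.480 and 0.320 kb. Both day 2 Tcf-1 RV libraries held each of the 6 widest. Those in Acer3 and Tnni3k and one 598931 bp from Negr1 were held by neither day 4 Tcf-1 RV library. At gene ends, the day-2-only regions near Ccl20, a chemokine gene (chr1:83119996-83120271, 0.233 and 0.276 kb), and Myh1, a skeletal myosin gene (0.231 and 0.252 kb), had that pattern too. The region at the promoter of Msh4 was held by no Tcf-1 RV library, and a day 4 Empty RV peak lay 44 bp from it.

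Regions were assigned to the nearest protein-coding gene within 50 kb. Of 15229 genes with a region, 6475 (42.5%) had a day-4-only region and 0.821% a day-2-only region. The first share depended on how many regions a gene had, from 15.6% of genes with 1 region to 100% of genes with 20 or more. The share of regions that were day-4-only varied less, between 15.6% and 21.5% over the same steps, and was 20.3% over all assigned regions. A list's share of genes is therefore read with its share of regions.

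The 12 genes with the most day-4-only regions were long, from 205.8 to 824.1 kb. Nav2, a cytoskeletal protein of neurite growth, had 11 of 28 regions day-4-only. Utrn (utrophin, which links actin to the membrane), Psd3, Nfia and Snx29 had 10 each, of 31, 34, 36 and 36. Sema3d, a secreted guidance protein, had 9 of 15, the highest share among the 12. Ldlrad4, Pde4b, Npas3, Frmd4a and Ppargc1a had 9 each, of between 21 and 31 regions. None of the 12 had a day-2-only region.

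Nfia, a nuclear factor I transcription factor, had the most regions with the day 4 pattern in both arms, 7 of its 10. The widest of these by its smaller peak lay at chr4:97689894-97690435 (0.485 and 0.532 kb), and the next at chr4:98080666-98081158 (0.484 and 0.490 kb), both inside the gene. Ext1, a heparan sulfate polymerase gene, came next with 6, followed by Arnt2, Frmd4a, Magi2 and Tns3 with 4 each. Utrn and Snx29 had 3 of 10 each, and Egfr 3 of 5. At Yap1, the Hippo pathway coactivator, all 3 day-4-only regions had it, with peaks of 0.241 to 0.374 kb in replicate 3 and 0.316 to 0.418 kb in replicate 4. These genes were picked from the top of the order, and the level over all day-4-only regions was 15.5%. Other genes named here were at or near 0, with 1 of 11 at Nav2, 0 of 7 at Sox5, 0 of 6 at Gli3 and 0 of 5 at Nfib.

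Among day-2-only regions, Gas2 (an actin-associated protein) and Nedd4l (a ubiquitin ligase) had 2 each, and every other gene had 1. Gas2 also had 3 day-4-only regions. Of its day-2-only regions, chr7:51987535-51987758 (0.206 and 0.224 kb) was held by both day 2 and neither day 4 Tcf-1 RV library, and chr7:51978891-51979221 (0.208 and 0.331 kb) by all 4. Asb11, Ccl20, Eif4enif1, Gm4312 and Slc16a4 had their single region in this class.

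Gene lists for fibroblast biology were then read against these levels. Over 19 lists with 351 matched genes, the day-4-only share of regions ran from 10.5% to 26.2%, and 8 of 19 lists were above the 20.3% of all assigned regions. The lists held 5 day-2-only regions between them. Gene ends took in 10.2% of day-4-only regions and 19.2% of all regions. A list's share therefore also depends on how many of its regions lie at gene ends, which was not matched between lists. The shares have no intervals, and differences between lists were not tested. With the 22778 widest peaks per library, 13.6% of all genes with a region had a day-4-only and 11.2% a day-2-only region. At that length 15 of 19 lists had more genes with a day-4-only region and 4 had more with a day-2-only region. Those 4 were AP-1 and immediate early genes (1 against 4), mesenchymal transcription factors (3 against 6), Wnt genes (1 against 3) and the adipocyte, bone, cartilage and muscle list (4 against 7).

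**Figure D5:**
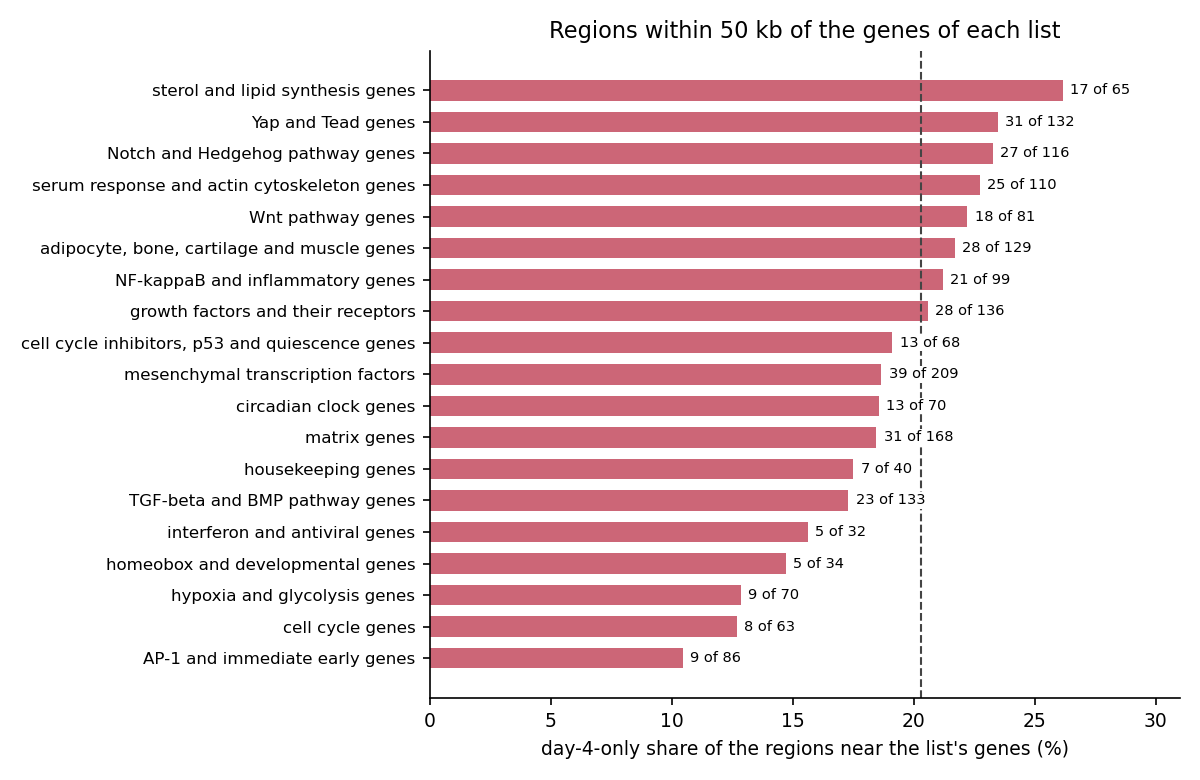
Share (%) of the regions within 50 kb of each list's genes that are day-4-only, with the number of such regions of all the list's regions, and the 20.3% of all assigned regions as a dashed line. AP-1 and immediate early genes are lowest at 10.5% and sterol and lipid synthesis genes highest at 26.2%.

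Of the 19 lists, that of genes that respond to growth signals within minutes had the lowest share of day-4-only regions. The level over all assigned regions was 20.3%, which is not matched to a list for its mix of gene-end and distal regions. Among the AP-1 and immediate early genes, 8 of 18 had a day-4-only region, and 9 of 86 regions (10.5%) were of that class. Jun had 2 of 14 regions, and Fosl1, the AP-1 member Fra-1 and a marker of fibroblasts, had 1 of 3, at a gene end (chr19:5447529-5448031, 0.356 and 0.503 kb), held by all 4 Tcf-1 RV libraries. Fosb had 1 day-4-only and 1 day-2-only region. Cell cycle genes had 5 of 19 genes and 8 of 63 regions (12.7%). Ccnd1, cyclin D1 of the G1 phase, had 3 of its 4 regions in the class, with peaks of 0.218, 0.454 and 0.270 kb in replicate 3 and 0.255, 0.430 and 0.250 kb in replicate 4. Tcf-1 RV replicate 3, a day 4 library, held none of the 3. Hypoxia and glycolysis genes had 9 of 70 regions (12.9%), among them 3 of 11 at Pfkfb3.

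Cell cycle inhibitors, p53 and quiescence genes had 8 of 18 genes and 13 of 68 regions (19.1%). Foxo1, a transcription factor of quiescence, had 4 of 7. Gas6, a ligand of the receptor Axl, had both of its regions in the class, and Gas1, a growth arrest gene, had 1 day-4-only and 1 day-2-only region of 7. Housekeeping genes had 7 of 15 genes and 7 of 40 regions (17.5%), with 1 region each at Gapdh, Hprt, Eef2 and Polr2a.

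The Yap and Tead list and the actin list had shares near that of all regions. The Yap and Tead list had 15 of 18 genes and 31 regions (23.5% of the list's). Ajuba had 3 of 4, Yap1 3 of 8, Crim1 5 of 14 and Vgll3 3 of 8. The serum response and actin cytoskeleton list had 14 of 16 genes and 25 of 110 regions (22.7%). Actn1, the actin crosslinker alpha-actinin 1, had 4 of 10, Fhl2 3 of 12, Myh9 3 of 12 and Cald1 3 of 18. Mrtfa, the coactivator of serum response factor, had 2 day-4-only and 1 day-2-only region of 16.

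Matrix genes had 17 of 22 genes and 31 regions (18.5%). Col4a2 had 5 of 17, Col4a1 3 of 12, Col6a2 4 of 8 and Tnc, tenascin C, 3 of 17. Mesenchymal transcription factors had 15 of 20 genes and 39 regions (18.7%), with Nfia followed by Nfib at 5 of 26, Nfix at 4 of 13 and Zeb1 at 3 of 10. In the TGF-beta and BMP list, which controls matrix production, 13 of 20 genes and 23 regions (17.3%) were of the class. Smad3, a signal transducer, had 5 of 16, the latent ligand binder Ltbp1 4 of 25, the ligand Tgfb2 3 of 7 and the inhibitor Skil 2 of 6.

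Growth factors and their receptors had 12 of 18 genes and 28 regions (20.6%). The receptor genes Egfr, Igf1r, Met and Fgfr2 had 5 of 21, 4 of 15, 4 of 17 and 3 of 13. The Notch and Hedgehog list had 14 of 16 genes and 27 regions (23.3%), led by the Hedgehog effectors Gli3 with 6 of 26 and Gli2 with 5 of 15. Sufu, their inhibitor, had 3 of 8. The Wnt list had 9 of 17 genes and 18 of 81 regions (22.2%). Tcf7l2 had 5 of 14, Dkk3 3 of 7 and Lgr5 2 of 4. Tcf7, which encodes Tcf-1, had 2 of 6, and peak lists cannot show whether a virus or its product was present.

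Inflammatory genes were close to all regions. The NF-kappaB list had 10 of 17 genes and 21 of 99 regions (21.2%), with 4 of 10 at Nfkb1, 4 of 9 at Tnfaip3, 4 of 9 at Lif and 2 of 9 at Ccl2. Interferon and antiviral genes had 3 of 12 genes and 5 of 32 regions (15.6%). Of those 5, 3 were at Rsad2, the antiviral protein viperin, which had 4 regions in all. Its day 4 peaks were 0.200, 0.269 and 0.200 kb in replicate 3 and 0.218, 0.268 and 0.292 kb in replicate 4.

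Differentiation and metabolic genes were spread over the range. The adipocyte, bone, cartilage and muscle list had 13 of 20 genes and 28 regions (21.7%). Sox5 and Sox9, factors of cartilage, had 7 of 33 and 3 of 7, Ebf1 had 4 of 26, and Alpl, alkaline phosphatase of bone, 2 of 2. Sox5 and Ebf1 each had 1 day-2-only region as well. Homeobox and developmental genes had 3 of 15 genes and 5 of 34 regions (14.7%), with 2 of 5 at Lhx8 and 2 of 5 at Gata4. Sterol and lipid synthesis genes had 9 of 14 genes and 17 of 65 regions (26.2%), with Abca1, the cholesterol exporter, at 4 of 9, Acaca at 3 of 5, Insig1 at 3 of 8 and Srebf1 at 2 of 3. Circadian clock genes had 6 of 12 genes and 13 of 70 regions (18.6%), with 4 of 15 at Arntl (Bmal1) and 4 of 16 at Rora.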

How the data were processed

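ATAC-seq peak lists of 4 Empty RV and 4 Tcf-1 RV NIH3T3 libraries were used. Per the submitters' processing notes, the authors used MACS2, Picard, Bowtie2 2.2.9, STAR 2.5, Trim Galore and FastQC, and named the builds GRCh37, GRCm38 and mm10. The tool behind each file is not stated there. The deposited files hold start and end positions only. Coordinates are GRCm38 (another name of mm10), counted from 1. Peaks on unplaced sequences, 85 in the 4 Empty RV lists, were left out.

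Lists were merged at 1 bp. A region counts as held where a library has any peak in it. Genes came from RefSeq GRCm38.p6 (gene ends without strand), promoter windows from RefSeq's table of that build. H3K27me3 and H3K9me3 were read at region midpoints in islands called in both replicates of NIH3T3 cells without Tcf-1, and Tcf-1 summits (40562 in 1 pooled list) anywhere in a region. Libraries were compared with two-sided exact permutation tests (scipy 1.17.1, with numpy 2.4.6, pandas 2.3.3 and Python 3.11.15). The merge was tested on simulated data. The regions, gene lists and measures were chosen with earlier results of these data known. Of 354 listed genes, Mx1, Mx2 and Rigi had no match. Genes and regions were named by a rule: the 12 genes with the most day-4-only and the 8 with the most day-2-only regions, up to 4 and up to 2 per list, the 12 and 6 widest regions, and the 6 and 3 widest at gene ends. Promoters, G + C steps, patterns over both arms, gene-internal shares and peak widths at shared regions were added after the data were seen, and so was naming Tcf7, the promoters and the genes with the pattern of both arms. A few genes and 1 region that the rule names are not reported here.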

Additional observations from a re-analysis of the deposited data

Results flagged for a closer look

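In Empty RV replicate 1, a day 2 library, the median peak was 290 bp wide, against 317, 317 and 318 bp in replicates 2, 3 and 4. Its gap to the nearest of the others was most of the whole range over the 4 libraries. The other 8 measures checked in the same way over these libraries had no such value, and chance alone marks about 1 in 20 such groups. Replicate 1 also had the shortest list, 22778 peaks.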

How the results depend on the processing

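No paired analysis was possible because the libraries of the 2 days share no replicate number in the labels, and differences within the letter tags of the file names, whose meaning is not stated, were run instead. Within these tags, 25285 regions (53.1%) were day-4-only and 801 (1.68%) day-2-only in tag 1 (replicate 3 against 1), and 25796 (43.5%) and 1358 (2.29%) in tag 2 (replicate 4 against 2). Leaving out 1 replicate in turn gave between 13132 and 25111 day-4-only regions and a day-2-only share between 0.393% and 1.77%. Here 1 library stands for its day, which alone lets more regions pass. The highest day-4-only count was without replicate 3 (22323 without replicate 2), and the highest day-2-only share without replicate 1 (1083 regions, against 348 without replicate 2 and 478 without replicate 4). With the 22778 widest peaks per library there were 2254 day-4-only and 2026 day-2-only regions (6.34%), and with peaks of at least 312 bp 6286 and 52 (0.163%). A cover of 50% and an absence over 1 kb stayed within 1.5 times of both counts. With equal numbers of widest peaks, differences of day 4 minus day 2 reversed for the share of gene-end peaks (3.49 points), promoter windows (4.19), gene-internal peaks (3.25), H3K9me3 (-0.470), Tcf-1 summits (2.72) and peaks open in thymocytes (2.44). The cut left replicate 1 whole and kept only the widest peaks of the others, so it is not a neutral comparison of the days. The cause was not tested. The H3K9me3 difference, 0.158 points, ran from -0.0568 (without replicate 4) to 0.373 (without replicate 3) and was -0.0927 in tag 1. The difference between Tcf-1 RV libraries kept its direction when each was left out, from 7.27 to 50.9 points at day-4-only and from -61.3 to -38.0 at day-2-only regions. Genes per list with a day-4-only region fell to between 1 and 10 with equal lists, where 13.6% of all genes with a region had one and 11.2% a day-2-only region. With regions within 10 kb they fell in 16 lists and were the same in 3, at between 2 and 14. No read depth is known, so the absence of a peak is not the absence of open chromatin.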
